A study of Mus musculus with 12 samples.

Results

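The genes described here are 6 members of the tubulin tyrosine ligase-like family (Ttll1, Ttll4, Ttll5, Ttll7, Ttll11 and Ttll12) and 4 genes of microtubule-associated proteins (Map1a, Map1b, Map1s and Map4), measured as RNA in mouse hearts. They are 10 of 54178 gene entries in the deposited count table. All 10 passed the filter on low counts, which left 15226 genes. The group was chosen by 2 measured values in these same libraries, a lower Ttll1 and a higher Map1b in hearts lacking Cited4, and the other 8 are their relatives. The genotype values of the 10 genes are therefore given as descriptions, without a test. The common name of the group, tubulin glutamylases and Map1 proteins, holds for most of its members: Map4 belongs to the MAP2 and tau family and not to the MAP1 family, and a glutamylase activity of Ttll12 has not been established.

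Microtubules are polymers of alpha- and beta-tubulin that form a cage around the nucleus and run between the myofibrils of heart muscle cells. TTLL glutamylases add chains of glutamate to the tails of tubulin, and cytosolic carboxypeptidases remove them. The length of these chains tunes the binding of motors, severing enzymes and microtubule-associated proteins, the last of which coat and stabilise the polymer. In the heart, a denser and more strongly modified microtubule network is known to add to the stiffness of cardiomyocytes.

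RNA came from whole hearts of 12 samples in 4 groups of 3. Flox mice were homozygous for loxP-flanked Cited4, a transcriptional co-regulator gene. KO mice came from crossing Flox mice with carriers of aMHC-cre, a transgene whose promoter drives cre recombinase in cardiomyocytes, so other heart cells keep the gene. No group carried the transgene with an intact Cited4, and the loss of the gene and the presence of cre cannot be told apart. For 8 weeks, mice of each genotype were kept Sedentary or had free access to a running wheel, per the labels. The letter codes in the sample titles read the other way from these treatment words, so the words sedentary label and exercise label are used. If the codes were right, each treatment difference and the interaction would change sign, and the values averaged over treatment would not. The KO minus Flox values given under the sedentary label would then belong to the running wheel, and those under the exercise label to sedentary mice. Which animal gave which sample is not stated, and a p-value here reflects only how far these samples vary, which may be technical.

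Library totals ran from 17465401 to 20467260 counts. Cited4 had 192 to 431 counts in the 6 Flox libraries and 0 to 5 in the 6 KO libraries. Markers of working cardiomyocytes were high in every library, with a mean log2(CPM + 1) of 11.75 to 12.41 over 10 genes, and those of skeletal muscle were near 0, at 0.17 to 0.60 over 8 genes. Levels are in CPM, which puts all libraries on 1 common size. Differences are log2 fold changes from a fit with edgeR over all 12 libraries, with their standard error, and a gene is called changed where the adjusted p of edgeR's quasi-likelihood test is under 0.05.

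Ttll1 encodes the catalytic subunit of the tubulin polyglutamylase complex, which lengthens glutamate chains mainly on alpha-tubulin. In Flox hearts under the sedentary label it stood at 47.7, 61.3 and 53.8 CPM. In Flox hearts under the exercise label the values were 45.8, 46.6 and 57.7 CPM. KO hearts had 31.6, 24.7 and 29.4 CPM under the sedentary label and 41.0, 40.6 and 36.0 CPM under the exercise label. Every KO library was thus below every Flox library, and the 3 KO libraries of the sedentary label were the lowest of the 12. From the lowest group mean to the highest the order was KO sedentary (28.5 ± 3.52 CPM, SD, n = 3), KO exercise (39.2 ± 2.78), Flox exercise (50.04 ± 6.68) and Flox sedentary (54.2 ± 6.81). Only the last pair of neighbours overlapped in their libraries.

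Map1b encodes a microtubule-associated protein best known from growing axons, cut after translation into a heavy and a light chain. It stood at 13.8, 10.5 and 11.2 CPM in Flox hearts under the sedentary label and at 12.8, 15.3 and 13.6 CPM under the exercise label. In KO hearts it was at 22.1, 22.7 and 23.4 CPM under the sedentary label and at 15.3, 12.6 and 14.7 CPM under the exercise label. The 3 KO libraries of the sedentary label stood apart from the other 9, which lay within 10.5 to 15.3 CPM. The group means were 11.8 ± 1.77 CPM in Flox sedentary, 13.9 ± 1.26 in Flox exercise, 14.2 ± 1.41 in KO exercise and 22.8 ± 0.638 in KO sedentary (SD, n = 3). Both Flox groups and the KO exercise group overlapped with one another.

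**Figure D1:**
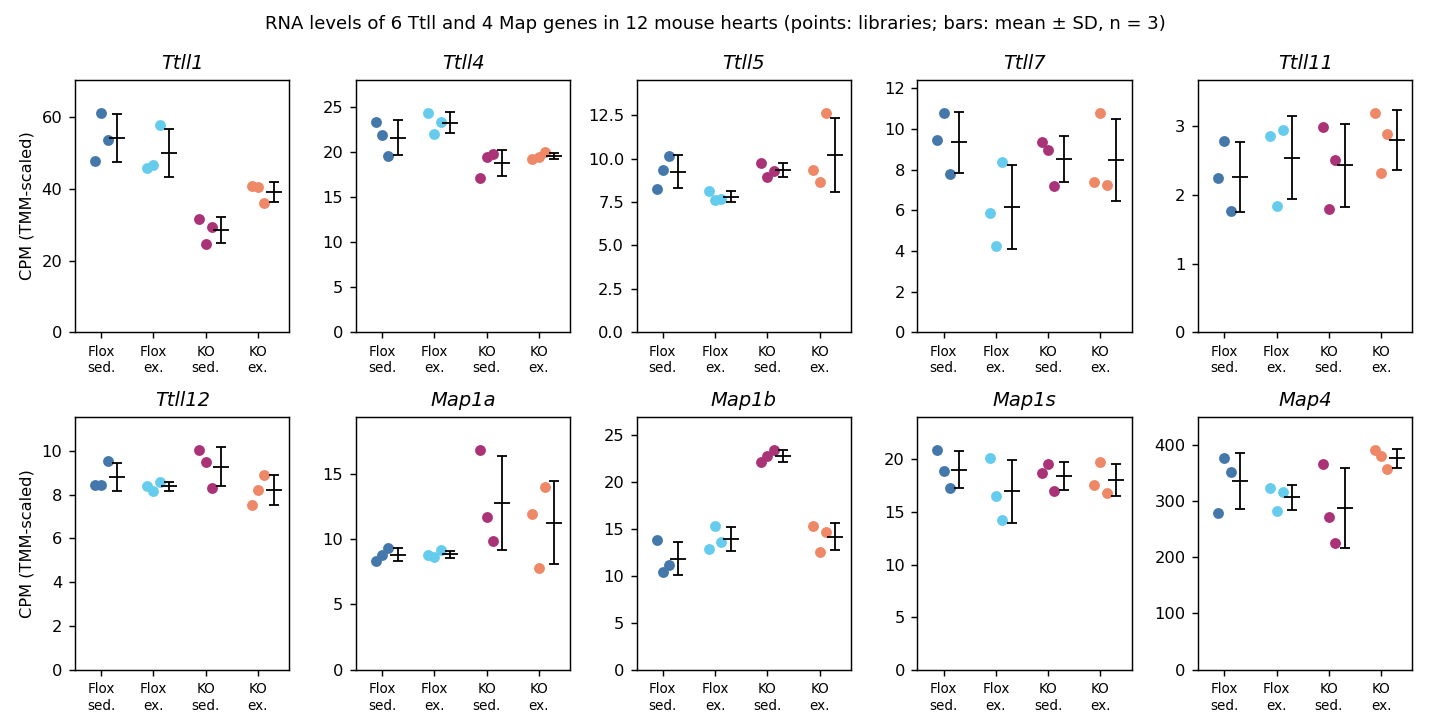
RNA level (CPM on scaled library sizes, linear axis from 0) of each of the 10 genes in the 12 libraries, with 1 point per library and bars for mean ± SD (n = 3) of each genotype and treatment label. Ttll1 is lowest and Map1b highest in the 3 KO libraries of the sedentary label, while Ttll11, Ttll12 and Map1s show overlapping groups.

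As log2 differences, KO minus Flox was −0.93 ± 0.13 (SE) for Ttll1 and 0.95 ± 0.12 for Map1b under the sedentary label. The mean level in KO was 0.526 times that in Flox for Ttll1 and 1.93 times for Map1b. These are the values that chose both genes. Over all tested genes, 0.125% passed the threshold in that comparison, which was not used to test the 10 genes. The differences ranged from −1.02 to −0.83 for Ttll1 and from 0.86 to 1.07 for Map1b when each library was left out in turn. With the mean of atrial markers as a covariate they were −0.83 and 0.82.

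Under the exercise label the KO minus Flox difference was −0.35 ± 0.13 for Ttll1, with KO at 0.783 times Flox, and 0.03 ± 0.13 for Map1b. Of all genes, 0.00657% passed there (1 gene, Cited4 itself). Averaged over both labels the differences were −0.64 ± 0.09 for Ttll1 and 0.49 ± 0.09 for Map1b. Of all genes, 0.0525% passed in the averaged comparison. None of these comparisons tests the 10 genes. The interaction, the exercise minus sedentary difference in KO less that in Flox, was 0.58 ± 0.18 for Ttll1 and −0.92 ± 0.18 for Map1b. No gene of the 15226 passed for the interaction (0% called, 1505 at an unadjusted p under 0.05 in edgeR), and DESeq2 called 50.

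**Figure D2:**
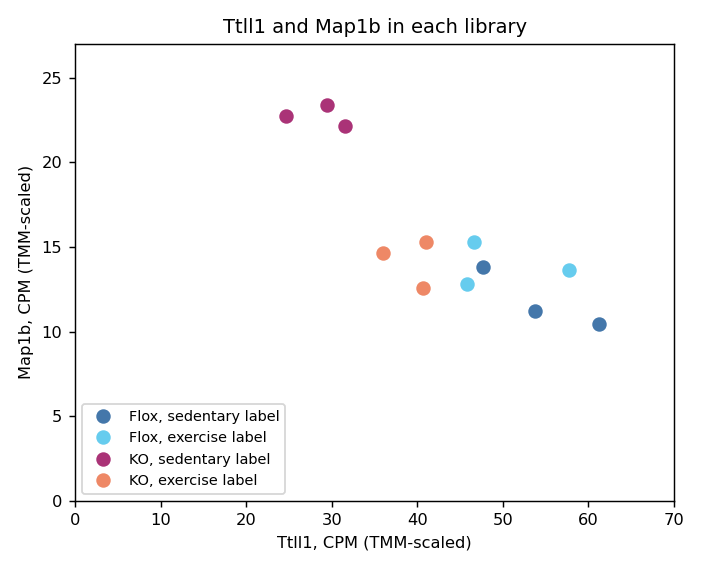
Map1b against Ttll1 level (both in CPM, linear axes from 0), 1 point per library, coloured by genotype and treatment label. The KO sedentary libraries sit at the upper left with Map1b from 22.1 to 23.4 CPM, and the other 9 libraries spread along Ttll1 with Map1b at or below 15.3 CPM.

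Across the 12 libraries Ttll1 and Map1b ran against each other, with a Pearson correlation of −0.89 of log2(CPM + 1). Both genes were chosen for opposite differences between the same libraries, which fixes the sign of this value. Among the other pairs of the 10 genes, the values farthest from 0 were −0.69 for Ttll4 with Map1a and 0.63 for Ttll5 with Map1a. The 5 genes outside the group whose pattern was most like that of Ttll1 over the 12 libraries, by Pearson correlation among genes with a mean of at least 1 CPM, were Bckdhb (0.96), Wdr33 (0.95), Gm49477 (0.94), Tmem223 (0.93) and Ssh2 (0.92). Bckdhb encodes a subunit of the mitochondrial dehydrogenase of branched-chain ketoacids. Its group means were 53.9 and 54.5 CPM in Flox under the sedentary and exercise labels, and 34.6 and 47.9 CPM in KO. For Map1b the 5 genes were Myl9 (0.95), Polm (0.94), Ttc9 (0.93), Plin1 (0.93) and Cidec (0.93). Myl9 encodes a myosin light chain of smooth muscle, and Plin1 and Cidec encode lipid droplet proteins of fat cells. Myl9 stood at 28.6 ± 9.89 CPM in Flox sedentary hearts and at 111 ± 40.9 CPM in KO sedentary hearts (SD, n = 3).

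Ttll4 starts glutamate chains, with a preference for beta-tubulin, and also acts on other proteins. Its levels were 23.3, 21.9 and 19.5 CPM in Flox sedentary, 24.4, 22.03 and 23.3 CPM in Flox exercise, 17.1, 19.5 and 19.8 CPM in KO sedentary, and 19.3, 19.4 and 19.9 CPM in KO exercise hearts. The KO minus Flox difference was −0.20 ± 0.10 under the sedentary and −0.25 ± 0.10 under the exercise label, and libraries of the genotypes overlapped under the first label only.

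Ttll5 starts chains on alpha-tubulin. It had 8.27, 9.35 and 10.1 CPM in Flox sedentary, 8.16, 7.62 and 7.65 CPM in Flox exercise, 9.75, 8.95 and 9.27 CPM in KO sedentary, and 9.33, 8.62 and 12.6 CPM in KO exercise hearts. KO minus Flox was 0.01 ± 0.15 under the sedentary and 0.38 ± 0.15 under the exercise label. The latter was 0.20 without KO exercise replicate 3, the highest library of the 12. Ttll7 glutamylates beta-tubulin and is best known from neurons. It varied most between libraries, from 4.26 CPM in Flox exercise replicate 2 to 10.8 CPM in KO exercise replicate 2. Its KO minus Flox difference was −0.13 ± 0.23 under the sedentary and 0.46 ± 0.24 under the exercise label. Leaving out each library moved the sedentary-label value from −0.25 to −0.017, and with the mean of atrial markers as a covariate it turned to 0.38. The exercise-label value ran from 0.25 without KO exercise replicate 2 to 0.74 without Flox exercise replicate 3.

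Ttll11, which lengthens chains, had the fewest counts of the 10 genes, with 35 to 62 per library and 1.77 to 3.19 CPM. Ttll12 ranged from 7.52 to 10.03 CPM. Neither gene separated the genotypes under either label, with KO minus Flox between −0.03 and 0.14 in the 4 values. Each of the 4 turned sign when 1 library was left out, and Ttll11 under the sedentary label was at 0.39 with the atrial covariate. At the depth of Ttll11, where the standard error was 0.28, a log2 difference of the size seen for Ttll4 was not detectable.

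Of the microtubule-associated proteins, Map1a, a neuronal relative of Map1b with the same chain structure, stood at 8.32, 8.82 and 9.34 CPM in Flox sedentary and at 8.78, 8.62 and 9.14 CPM in Flox exercise hearts. KO hearts had 16.8, 11.7 and 9.86 CPM under the sedentary and 11.95, 7.80 and 14.0 CPM under the exercise label. The 6 Flox libraries thus lay within 8.32 to 9.34 CPM, and the KO libraries were spread over 7.80 to 16.8 CPM. KO minus Flox was 0.53 ± 0.21 under the sedentary label and 0.27 without KO sedentary replicate 1. Under the exercise label it was 0.35 ± 0.21, and 0.16 without KO exercise replicate 3. Exons of Map1a share 272 bases with Ppip5k1 on the opposite strand, and since the strand setting of the counting is not given, reads of the 2 genes may be mixed there.

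Map1s, the small and widely expressed MAP1 protein that binds the autophagy protein LC3, had 14.2 to 20.9 CPM over all libraries. Its KO minus Flox differences were −0.05 ± 0.13 and 0.09 ± 0.13, and the first turned to 0.09 with the atrial covariate. Map4 is the main microtubule-associated protein of muscle and other cells outside the nervous system. It stood at 279, 376 and 352 CPM in Flox sedentary, 322, 281 and 315 CPM in Flox exercise, 366, 272 and 225 CPM in KO sedentary and 391, 380 and 358 CPM in KO exercise hearts. KO minus Flox was −0.22 ± 0.17 under the sedentary label, −0.45 without KO sedentary replicate 1, −0.080 without KO sedentary replicate 3 and −0.085 with the atrial covariate, and 0.30 ± 0.17 under the exercise label.

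**Figure D3:**
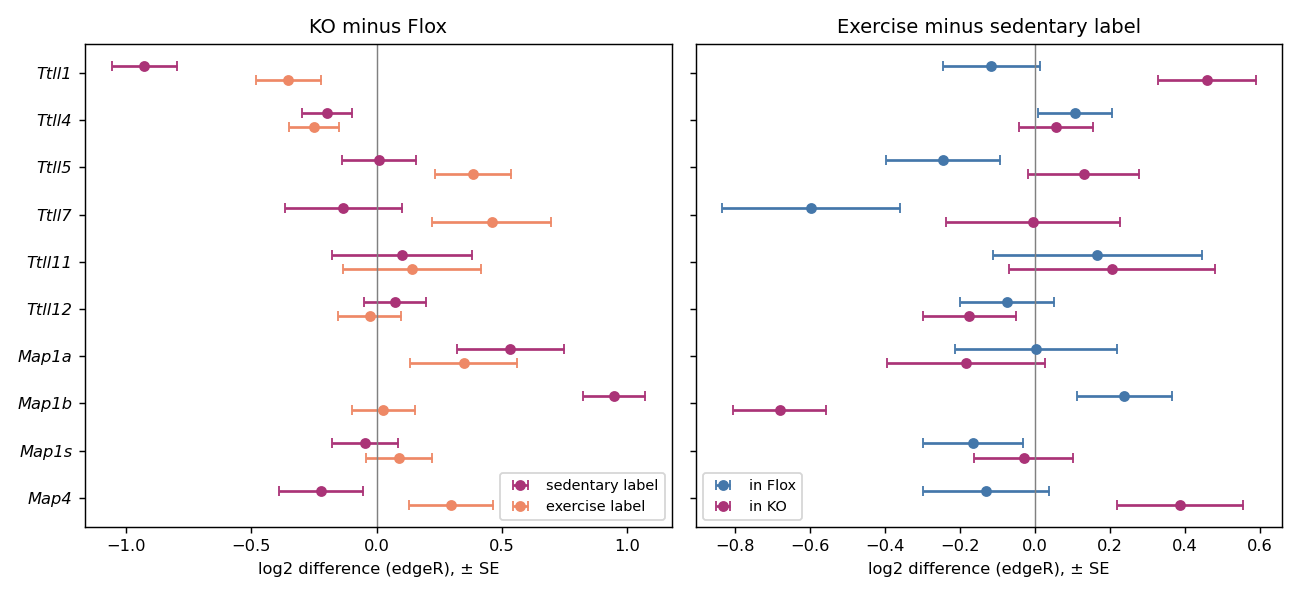
Log2 differences (edgeR, points with ± SE) of the 10 genes, KO minus Flox under each treatment label on the left and exercise minus sedentary label within each genotype on the right. Ttll1 at −0.93 and Map1b at 0.95 lie farthest from 0 on the left. On the right Map1b in KO lies at −0.68 and Ttll7 in Flox at −0.60.

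Counted by libraries, 3 of the 10 genes had no overlap between KO and Flox under the sedentary label (Map1a and Map1b above, Ttll1 below), where 18.4% of all tested genes had none. Under the exercise label 4 of 10 had none (Ttll5 and Map4 above, Ttll1 and Ttll4 below), against 14.8% of all genes. Over 6 KO against 6 Flox libraries only Ttll1 did not overlap, against 0.46% of all genes. These counts come from the contrast that chose the genes.

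To compare levels between genes, CPM was divided by the kilobases of exon in GENCODE M21. These count every base in an exon of any transcript, from 2.91 kb for Ttll1 (4 transcripts) to 15.9 kb for Ttll5 (20 transcripts). The transcripts present in heart may be shorter, so the order between genes depends on the annotation and is approximate. On that scale Map4, with group means of 19.0 to 24.8 CPM per kb, and Ttll1, with 9.80 to 18.6 CPM per kb, stood above the rest. Ttll12 (2.03 to 2.30), Map1s (2.13 to 2.39) and Ttll4 (1.63 to 2.01) followed. Map1b (0.746 to 1.44), Map1a (0.726 to 1.05), Ttll7 (0.746 to 1.13), Ttll11 (0.563 to 0.696) and Ttll5 (0.492 to 0.642) were lowest. Among the 6 Ttll genes, the level per kb of Ttll1 in its lowest group was thus above that of each other gene in its highest group.

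In GRCm38 coordinates, Ttll1 lies on chromosome 15 from 83483769 to 83510893 on the minus strand, and Ttll12 is 64.2 kb away at 83575090 to 83595157, also on the minus strand. Map1b lies on chromosome 13 from 99421446 to 99516540 on the minus strand. The 5 nearest tested genes on each side of Ttll1, within 232.0 kb, included none called in KO minus Flox under either label or on average. Their median difference under the sedentary label was 0.10, and 1 had an unadjusted p under 0.05, Tspo at 0.67 ± 0.22 (edgeR adjusted p = 0.220). Of the 10 nearest tested genes of Map1b, within 627.5 kb, none was called either, with a median of −0.08 under the sedentary label and 1 at an unadjusted p under 0.05, Mccc2 at −0.47 ± 0.12 (edgeR adjusted p = 0.138). DESeq2 called Mccc2 under the sedentary label and no other of these neighbours in the 3 genotype comparisons.

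The difference between treatment labels was not used to choose the genes, and it was tested here. The libraries compared also entered the genotype contrast that chose Ttll1 and Map1b. In Flox hearts no gene of the 15226 passed for exercise minus sedentary label (0% called, 1129 at an unadjusted p under 0.05 in edgeR), while DESeq2 called 49. None of the 10 passed in edgeR (1 at an unadjusted p under 0.05) or in DESeq2. Ttll7 had the smallest p of the 10, with a log2 difference of −0.60 ± 0.24 (edgeR adjusted p = 0.600). Its libraries were at 9.45, 10.8 and 7.77 CPM under the sedentary and 5.87, 4.26 and 8.37 CPM under the exercise label, which overlap. Map1b differed by 0.24 ± 0.13 (edgeR adjusted p = 0.701) and Ttll5 by −0.25 ± 0.15 (edgeR adjusted p = 0.745). Libraries of Ttll5 did not overlap between the labels in Flox, 1 gene of 10, where 14.1% of all genes had no overlap.

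In KO hearts 0.0197% of all genes passed for exercise minus sedentary label (3 genes, all lower), and none of the 10 (3 at an unadjusted p under 0.05). The Map1b difference was −0.68 ± 0.12 (edgeR adjusted p = 0.109), with 3 of 3 exercise libraries below all sedentary ones. DESeq2, and edgeR without the filter on low counts, called it. The Ttll1 difference was 0.46 ± 0.13 (edgeR adjusted p = 0.305), with 3 of 3 exercise libraries above all sedentary ones. Map4 differed by 0.39 ± 0.17 (edgeR adjusted p = 0.448) with overlapping libraries. The other 7 genes lay between −0.18 and 0.20. No overlap was seen for 2 of the 10 genes, against 13.1% of all genes. This comparison uses the KO sedentary libraries that chose Ttll1 and Map1b, so their values in it are not independent of that choice. Without KO sedentary replicate 1, Map1b (−0.68, edgeR adjusted p = 0.0263), Map4 (0.61, adjusted p = 0.0408) and Ttll1 (0.55, adjusted p = 0.0483) passed, and the number of genes called over the whole table went from 3 to 566.

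The wider pathway was read from 13 lists of 96 further genes, of which 80 had enough counts to be tested. None was called by edgeR in any of the 6 comparisons, and DESeq2 called 1, Agtpbp1 for KO minus Flox under the sedentary label. Under the sedentary label 7 of 80 had an unadjusted p under 0.05 for KO minus Flox, with 39 above and 41 below 0. Their median was −0.0020, beside 0.00019 over all genes tested. Under the exercise label 4 of 80 had such a p, with 42 above and 38 below 0, a median of 0.0073 and −0.0073 over all genes. The comparisons under the 2 labels share no libraries with each other, but each shares its libraries with the comparisons between treatments.

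The partners that hold TTLL1 in its complex were all 4 tested. Their KO minus Flox differences under the sedentary label were 0.02 ± 0.11 for Tpgs1, −0.16 ± 0.15 for Tpgs2, 0.29 ± 0.17 for Lrrc49 and 0.18 ± 0.12 for Nicn1. Under the exercise label they were −0.08, −0.14, 0.06 and 0.10. Tpgs1 stood at 15.9 ± 1.65 CPM in Flox sedentary and 16.1 ± 1.42 CPM in KO sedentary hearts (SD, n = 3), beside 54.2 and 28.5 CPM for Ttll1.

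The remaining glutamylases were scarcely found. Ttll6 had no count in any library, which allows up to 0.0129 CPM over all 12 (3 counts, for counting error only), Ttll2 and Ttll9 had at most 1 and 2 counts in a library, and Ttll13 at most 9. Of the glycylases, which attach glycine to the same tails, Ttll3 alone could be tested, at 1.03 to 2.12 CPM in the group means, and Ttll8 and Ttll10 had at most 0 and 1 counts.

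Deglutamylases shorten the chains. Of the 6, Agtpbp1, Agbl2, Agbl3 and Agbl5 were tested, and Agbl1 and Agbl4 had at most 2 and 3 counts. Agtpbp1, which encodes CCP1, was the most abundant, at 108 ± 21.1 CPM in Flox sedentary, 88.1 ± 0.728 in Flox exercise, 73.0 ± 14.4 in KO sedentary and 96.7 ± 9.93 in KO exercise hearts (SD, n = 3). Its KO minus Flox difference of −0.56 ± 0.16 under the sedentary label had the smallest p of the 80 genes and did not pass in edgeR (adjusted p = 0.165), while DESeq2 called it. Agbl2, Agbl3 and Agbl5 were at −0.28, −0.06 and −0.21 there, and all 4 were between 0.14 and 0.24 under the exercise label, none passing.

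Among enzymes of other tubulin marks, the tyrosine ligase Ttl was at −0.22 ± 0.12 and the detyrosination genes Vash1 and Svbp at −0.18 ± 0.36 and 0.10 ± 0.17 for KO minus Flox under the sedentary label. The acetylase Atat1 was at 0.40 ± 0.17 (edgeR adjusted p = 0.319), and the deacetylases Hdac6 and Sirt2 at 0.17 and −0.03. Of 16 tested tubulin genes, 13 were above and 3 below 0 under the sedentary label, with a median of 0.25, and 4 were above and 12 below 0 under the exercise label, with a median of −0.15. None passed in either comparison. The most abundant, Tuba4a, an alpha-tubulin gene made without the C-terminal tyrosine, differed by −0.53 ± 0.26 and −0.41 ± 0.26 (edgeR adjusted p = 0.397 and 0.713), and Tuba1b by 0.39 ± 0.19 and −0.08 ± 0.19. Tubulin genes are near-identical in places, and the counting may split reads between them.

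The severing enzyme Spast, whose activity depends on glutamate chains, was at 0.05 ± 0.11 under the sedentary label. Of 11 other tested lattice-binding proteins, 4 were above and 7 below 0, with Map7d1 at −0.10 ± 0.15, Mapt (tau) at −0.45 ± 0.21 and Map7 at −0.49 ± 0.19. The highest of the 11 was Map7d3 at 0.78 ± 0.37. Of 13 tested end-binding and turnover proteins 5 were above and 8 below 0, with Clasp1 at −0.17 ± 0.24, Clip1 at −0.39 ± 0.16 and Mapre2 at −0.04 ± 0.15. The highest of the 13 was Stmn4 at 0.65 ± 0.64. The MARK kinases, which detach microtubule-associated proteins, lay between −0.10 and 0.07. Map1lc3a and Map1lc3b, named for their copurification with MAP1 proteins, were at −0.34 ± 0.13 and −0.07 ± 0.10. Of the 10 tested kinesin-1 and dynein subunits 3 were above and 7 below 0, with Dync1h1 at −0.12 ± 0.13 and Kif5b at −0.05 ± 0.15. Kif5c, a subunit of low level, had the largest difference of the 80 genes, at 0.95 ± 0.34 (edgeR adjusted p = 0.247). Its libraries of KO and Flox did not overlap, as for 18.4% of all tested genes.

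**Figure D4:**
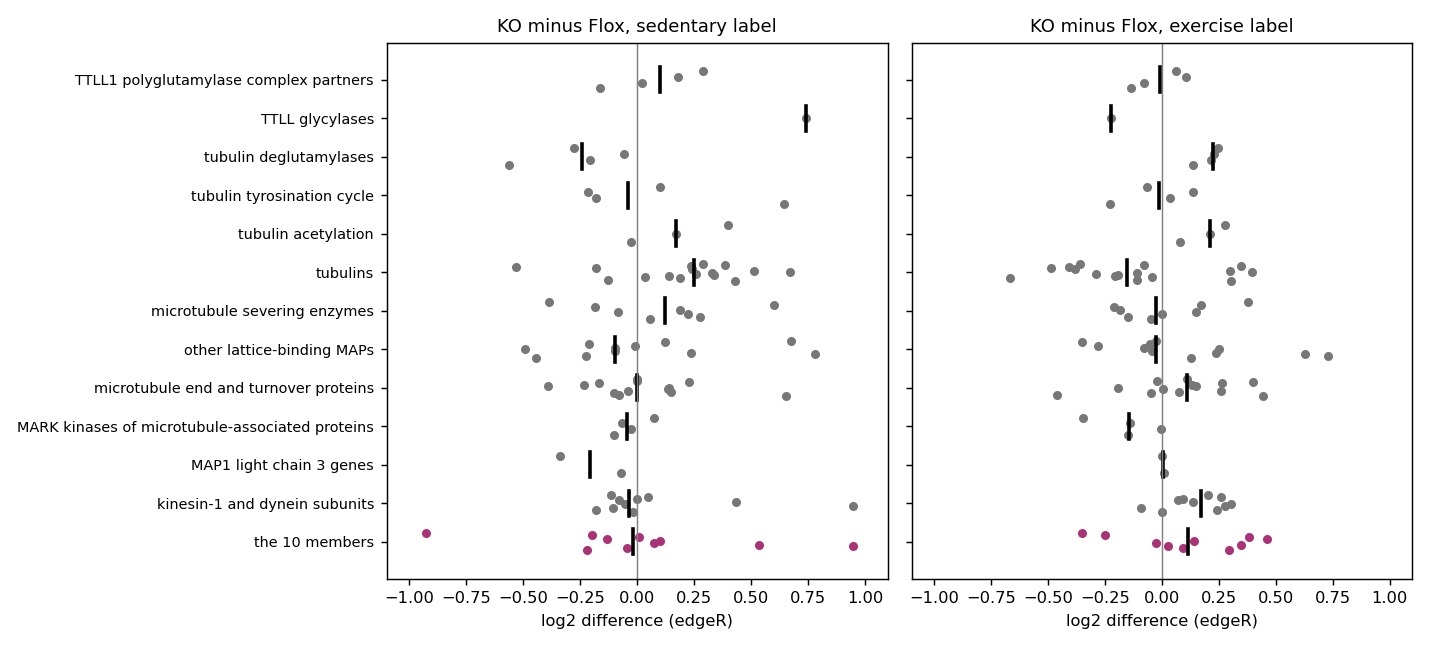
Log2 difference KO minus Flox (edgeR) of each tested gene in 12 pathway lists and of the 10 genes described here, under the sedentary label (left) and the exercise label (right), with 1 point per gene and a black line for the median of each list. No grey point passed the test, and the tubulin median moves from 0.25 on the left to −0.15 on the right.

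Markers of some cell types also stood apart in the KO sedentary libraries, and others did not. In bulk RNA of whole hearts, fewer cells of a type and less RNA per cell cannot be told apart. All 10 working cardiomyocyte markers were below 0 for KO minus Flox under the sedentary label, with a median of −0.34, none called by edgeR (5 at an unadjusted p under 0.05) and 2 called by DESeq2 (Myl2 and Myl3). Their summed level was 51570 to 63221 CPM in the KO sedentary libraries, 70336 to 73531 in Flox sedentary, 63370 to 68841 in Flox exercise and 57985 to 71764 in KO exercise. Of 9 tested adipocyte markers 6 were above and 3 below 0 for KO minus Flox under the sedentary label. Of these 9, 4 were called higher in KO sedentary hearts (Adipoq, Cidec, Retn and Cebpa), where 0.125% of all tested genes were called. The list's mean log2(CPM + 1) was 3.74 to 4.11 there, above the 2.14 to 2.81 of the 9 other libraries, and its summed level overlapped (535 to 677 CPM in KO sedentary, 558 to 789 CPM in Flox sedentary). Of 8 smooth muscle markers 6 were above and 2 below 0, and Myl9 alone was called higher. Their summed level overlapped (1849 to 2697 CPM in KO sedentary, 1940 to 2073 CPM in Flox sedentary). Their mean log2(CPM + 1) did not, at 5.77 to 6.75 in KO sedentary and 5.06 to 5.70 in Flox sedentary hearts. In Flox exercise (5.43 to 5.84) and KO exercise hearts (5.39 to 5.89) this mean overlapped with KO sedentary hearts. A summed level weighs mostly the most abundant genes of a list, which limits what an overlap in sums shows. All 10 fibroblast markers were above 0, with none called by edgeR (7 at an unadjusted p under 0.05) and 3 by DESeq2. The fibroblast mean was 6.50 to 6.79 in KO sedentary and 5.99 to 6.01 in Flox sedentary hearts. Fibroblast means in Flox exercise (6.20 to 6.83) and KO exercise hearts (6.07 to 6.92) overlapped with those of KO sedentary hearts and reached higher.

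Atrial cardiomyocyte markers varied within every group. More atrium in a sample and a higher level of these genes per cell cannot be told apart here. Their mean log2(CPM + 1) was 2.97, 2.92 and 6.33 in Flox sedentary and 5.95, 8.34 and 8.88 in KO sedentary libraries. It was 2.86, 7.16 and 3.13 in Flox exercise and 6.92, 2.84 and 6.07 in KO exercise libraries. KO sedentary replicates 2 and 3 were thus the highest. Of the 10 atrial markers 9 were above and 1 below 0 for KO minus Flox under the sedentary label, with a median of 2.84. None of the 10 was called by edgeR (3 at an unadjusted p under 0.05). Markers of neurons and Schwann cells, where Map1b and Map1a are abundant, had a mean of 1.04 to 1.52 in KO sedentary and 0.957 to 1.01 in Flox sedentary hearts, and summed levels of 37.1 to 55.7 and 32.0 to 35.5 CPM. The means in Flox exercise (1.04 to 1.07) and KO exercise hearts (1.02 to 1.09) overlapped with those of KO sedentary hearts only through KO sedentary replicate 1 (1.04). KO sedentary replicates 2 and 3, at 1.52 and 1.21, were above every library of the other groups. Of 7 tested markers of this list 6 were above and 1 below 0 for KO minus Flox under the sedentary label. None of the 7 was called by edgeR (3 at an unadjusted p under 0.05). Th, Snap25 and Syt1 were among the markers at 0 in all Flox sedentary libraries. Motile cilia, whose axonemes are rich in glutamylated tubulin, were near absent, with summed marker levels of at most 1.49 CPM in any library.

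Over the 12 libraries Ttll1 correlated with the mean of working cardiomyocyte markers at 0.82 and with that of adipocyte markers at −0.82. For Map1b the values were −0.87 and 0.93. After the group means were removed, these became 0.60 and 0.27 for Ttll1 and −0.50 and 0.34 for Map1b. The neuron and Schwann cell, atrial and smooth muscle lists correlated with Ttll1 at −0.77, −0.68 and −0.65. For Map1b their values were 0.71, 0.72 and 0.77. With the group means removed they were −0.61, −0.30 and 0.20 for Ttll1 and 0.19, 0.48 and 0.17 for Map1b. The endothelial list, over all libraries, was at −0.05 for Ttll1 and 0.32 for Map1b. The points share library, depth and group, and the part of cell composition in the differences of Ttll1 and Map1b was not tested.

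**Figure D5:**
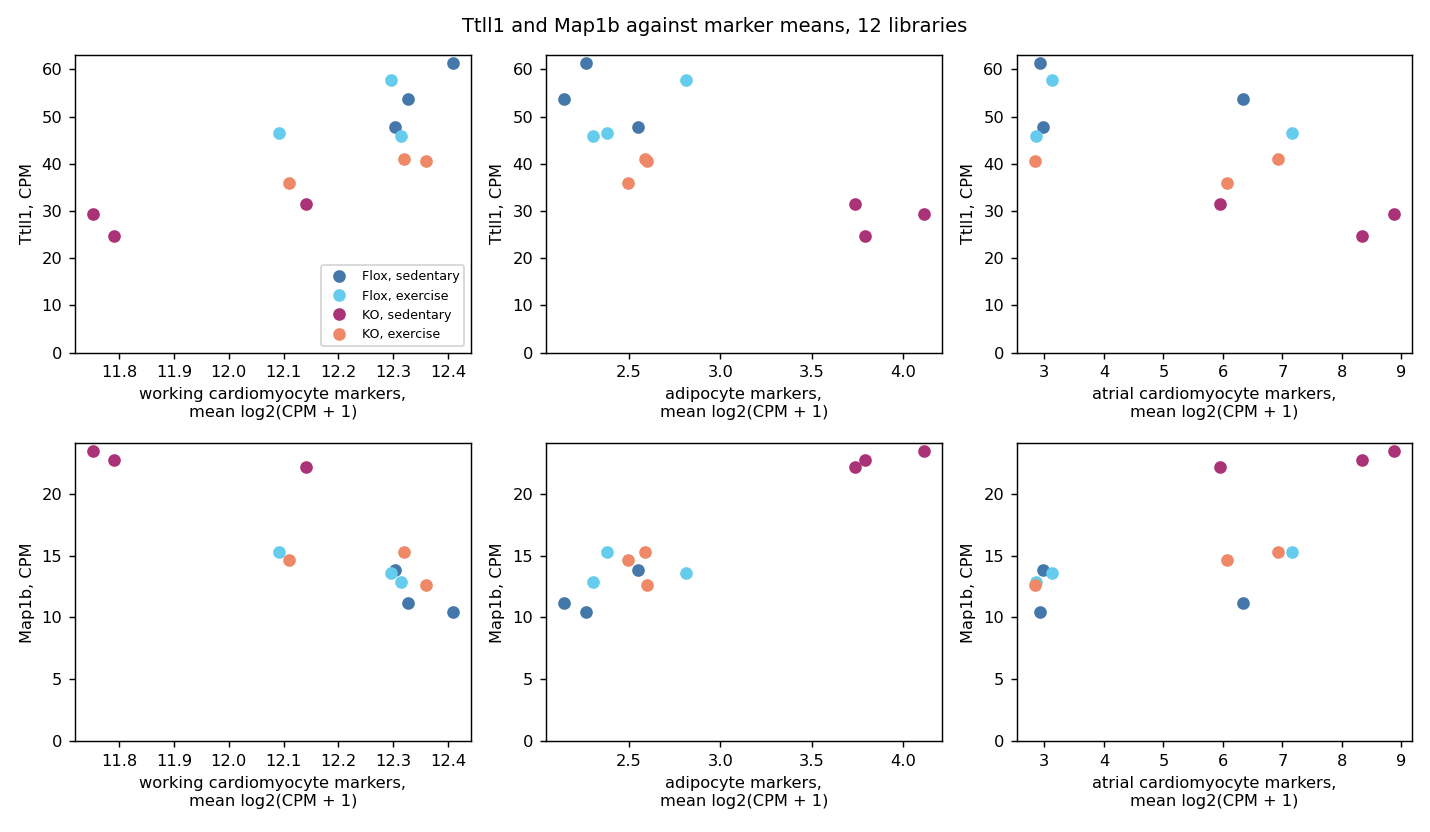
Ttll1 (top row) and Map1b (bottom row) level in CPM against the mean log2(CPM + 1) of working cardiomyocyte, adipocyte and atrial cardiomyocyte markers, 1 point per library, coloured by genotype and treatment label. The 3 KO sedentary libraries have adipocyte means of 3.74 to 4.11, above the other 9, while atrial means spread widely in every group.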

How the data were processed

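Per the submitters' processing notes, the authors used FastQC and Salmon, with the builds mm9 and mm10 named and no version or role. Which annotation and strand setting were used, and how transcripts were summed to genes, is not given in the sources used here. The deposited values are unscaled estimated counts, 1 row per symbol. Of 55874 entries, 1696 naming vectors, adaptors or primers (3.87e-05% to 0.186% of a library's counts) were left out. Estimated counts were rounded to whole numbers. The edgeR package (4.0.16, R 4.3.3) kept 15226 genes with filterByExpr, followed by TMM scaling, a cell-means model over 12 libraries, robust glmQLFit, glmQLFTest and Benjamini-Hochberg adjustment at 0.05. The fit was tested on simulated data for KO against Flox under the sedentary label (15008 genes), where it recovered 63% of genes changed by a log2 size of 1 and 94% of those changed by 2, with 4 false calls. Changes were placed only in genes above a low count limit, and all other genes had equal means in every group. Differences in tissue content that move many genes together were not simulated, so these rates may not hold for the real hearts. Within groups, the chi-square of 2 libraries divided by its degrees of freedom was 17.5 to 89.5, so none looked like the same library sequenced again. This value cannot tell separate preparations of 1 heart from separate hearts. DESeq2 1.42.0, other scaling, no filter, a replicate block, fewer groups, an atrial covariate and leaving out libraries were tried as alternatives.

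The members, gene lists and tests were chosen with earlier results of these data known. Named genes were all 10 members, all measured TTLL1 partners and deglutamylases, and up to 3 of the most abundant genes of other lists. Also named were the 5 genes most like Ttll1 and Map1b and genes singled out by a smallest p or a largest difference. Positions and exon lengths come from GENCODE M21 on GRCm38. Of 11 marker lists, those of macrophages, endothelium and mesothelium had medians of 0.49, 0.06 and 1.60 for KO minus Flox under the sedentary label with no gene called by edgeR (1, 1 and 0 at an unadjusted p under 0.05) and 1, Vwf, by DESeq2. The level of 1 marker gene is not reported here.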

Additional observations from a re-analysis of the deposited data

How the results depend on the processing

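With main counts of 0 and 3 (exercise minus sedentary label in Flox and KO), 19, 1 and 8 (KO minus Flox under the sedentary label, under the exercise label and on average) and 0 (interaction), DESeq2's Wald test called 49, 121, 394, 10, 172 and 50 genes, and edgeR without a filter 2, 30, 120, 4, 49 and 1. Only the groups compared gave 2, 5 and 39 for the first 3. DESeq2 size factors gave 1, and the atrial covariate 0, for exercise in KO. The covariate left 3 and 1 for KO minus Flox under the sedentary label and on average. Leaving out each library gave 0 to 2, 0 to 566, 2 to 479, 1 to 2, 4 to 34 and 0 to 2, with 566 and 479 both without KO sedentary replicate 1. The replicate block called 37 genes under the sedentary label and 19 on average, and changed no other count by over 1.5 times. Across groups, 18 pairs of equal replicate number correlated from −0.35 to 0.39, and 7 exceeded 0.1. Pairs of unequal number ran from −0.46 to 0.33. These values cannot decide whether replicate numbers pair the samples, since paired samples may correlate weakly.

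Several of the members' values turned sign. For KO minus Flox under the sedentary label, Ttll7 (−0.13) was 0.38 and Map1s (−0.05) was 0.09 with the atrial covariate. Ttll5 (0.01) ran there from −0.066 to 0.080 when libraries were left out. Map1b under the exercise label (0.03) ran from −0.030 to 0.11. In KO, exercise minus sedentary ran from −0.044 to 0.24 for Ttll5, −0.22 to 0.10 for Ttll7, −0.36 to 0.080 for Map1a and −0.10 to 0.029 for Map1s when libraries were left out, and for Ttll7 it was 0.00042 with DESeq2 size factors and 0.00037 with its Wald test. In Flox, Map1a ran from −0.037 to 0.045. Map1b in KO passed with DESeq2 (−0.68, adjusted p = 0.00140) and without a filter (−0.69, edgeR adjusted p = 0.0257). Both fits use the KO sedentary libraries that chose Map1b, so neither value is independent of that choice. The causes were not tested. Low counts limited Ttll11.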
